A study of Homo sapiens with 11 samples.

Results

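Potassium channel subunit genes were followed through the 6 days in which engineered myometrial microtissues form from hTERT-HM cells, a line of smooth muscle cells of the human uterus that telomerase keeps dividing. The members were every row of the deposited gene table annotated as protein-coding whose symbol begins with KCN, whatever its level, which gave 96 genes out of 78932 rows that name a human gene. They comprise 69 pore-forming subunits, 10 silent modifier subunits of voltage-gated channels and 17 auxiliary or regulatory subunits. RNA-seq libraries were made from wild-type cells only, with 3 libraries on day 1, 4 on day 3 and 4 on day 6. The labels name no treatment beyond the day of sampling. All libraries come from the same cell line, and nothing in the labels says that replicates were separate cultures, so p-values rest on a spread between libraries that may be only technical.

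Potassium channels let potassium leave the cell and so hold the membrane potential of smooth muscle negative, away from the voltage at which L-type calcium channels open and contraction starts. The human genes fall into several structural classes: calcium-activated channels of large (BK), intermediate (IK) and small (SK) conductance, inward rectifiers (Kir), tandem-pore-domain leak channels (K2P) and voltage-gated channels (Kv). Auxiliary subunits bind the pore-forming proteins and alter their gating, trafficking or stability. In the myometrium, BK channels, SK3, ATP-sensitive Kir6 channels, TREK1 and Kv7 and ERG channels are known as brakes on excitability.

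Library totals ranged from 28071813 to 33021509 counts, and the members together received 8688 to 12646 counts per library. A gene with 0 counts could have had up to 3, which is 0.0908 to 0.107 counts per 1000000 (CPM) in these libraries, for counting error only. Values below are CPM scaled by TMM factors (a correction for library composition), so that a level is relative to all other RNA in the same library. Of 12 markers of myometrial smooth muscle, 11 were detected, whereas the desmin gene DES never exceeded 2 counts. Their summed level was 1549.6 to 1894 CPM on day 1, 1605 to 1657 CPM on day 3 and 2613 to 2866 CPM on day 6. TPM2, CALD1 and TAGLN, at means of 939, 479 and 440.2 CPM, held most of this sum, while MYH11 was at 0.701 to 1.91 CPM. From day 3 to day 6 the tests below called 10 of the 11 higher and ESR1 lower, against 26.4% and 23.4% of all tested genes. The part of these markers in the late changes below was not tested. Of 6 cardiomyocyte markers 1 was detected, ACTN2 with at most 15 counts (summed 0.258 to 0.573 CPM over all libraries), and of 6 leukocyte markers 1, CD14, while PTPRC had at most 1 count. The leukocyte sum was 7.41 to 11.1, 4.80 to 6.80 and 3.44 to 9.77 CPM on days 1, 3 and 6. Of 6 neuron markers 5 were detected, with sums of 27.0 to 34.9, 23.5 to 27.7 and 27.9 to 33.8 CPM. Of 6 epithelial markers 4 were detected, KRT8 and KRT18 among them, with sums of 42.4 to 49.3, 55.7 to 60.1 and 35.1 to 40.1 CPM, while EPCAM and CDH1 had at most 3 counts. Of 6 endothelial markers 4 were detected, PECAM1 at 25.4 to 34.1 CPM, with sums of 40.0 to 42.5, 41.1 to 44.7 and 39.4 to 44.8 CPM, while CDH5 and CLDN5 had at most 8 counts. The part of these cell types' RNA in the results was not tested. In bulk RNA, fewer cells that express a gene and less of its RNA per cell cannot be told apart.

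Of the 96 genes, 34 (35.4%) were detected, defined as 10 or more counts in 3 or more libraries, against 66.3% of all 20116 protein-coding genes. The detected genes covered most classes of channel. They were 3 of 5 BK genes, 3 of 4 SK and IK genes, 1 of 3 sodium-activated or sperm-type genes, 5 of 16 Kir genes and 5 of 15 K2P genes. Among voltage-gated families, 3 of 11 Kv1 genes passed (all of them beta subunits), 1 of 4 Kv3 genes, 3 of 7 Kv4 genes, 2 of 5 Kv7 genes, 3 of 8 ether-a-go-go (EAG) genes and 3 of 10 silent subunits. In the KCNE family of single-span auxiliary subunits 2 of 5 were detected. On average 9 detected genes were at 10 CPM or more, 14 lay between 1 and 10 CPM and 11 were below 1 CPM.

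The 62 undetected genes had at most 14 counts in any library, 34 of them at most 3, and 4 (KCNA4, KCNA5, KCNB2 and KCNK18) had 0 counts in every library. Several genes known from uterine or vascular smooth muscle were among them. KCNJ13, which encodes the inward rectifier Kir7.1, and KCNJ11, which encodes the Kir6.2 pore of ATP-sensitive channels, had at most 2 counts each. KCNQ1 (Kv7.1) had at most 5 counts, KCNH2, the gene of the ERG1 channel, at most 2, and the KCNE3 auxiliary subunit at most 14. All 8 pore-forming Kv1 genes were below the threshold, with at most 7 counts (KCNA7). At the margin of the rule, KCNK7 (12 counts in the library that ranks 3 by count), KCNIP2 and KCNJ6 (13 each) passed, whereas KCNMB3, KCNE3 and KCNIP4 (8 each) did not. KCNJ12 and KCNJ18 are near-identical copies, and reads that match both may have been lost or split in counting, so their at most 4 and 3 counts are uncertain.

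**Figure D1:**
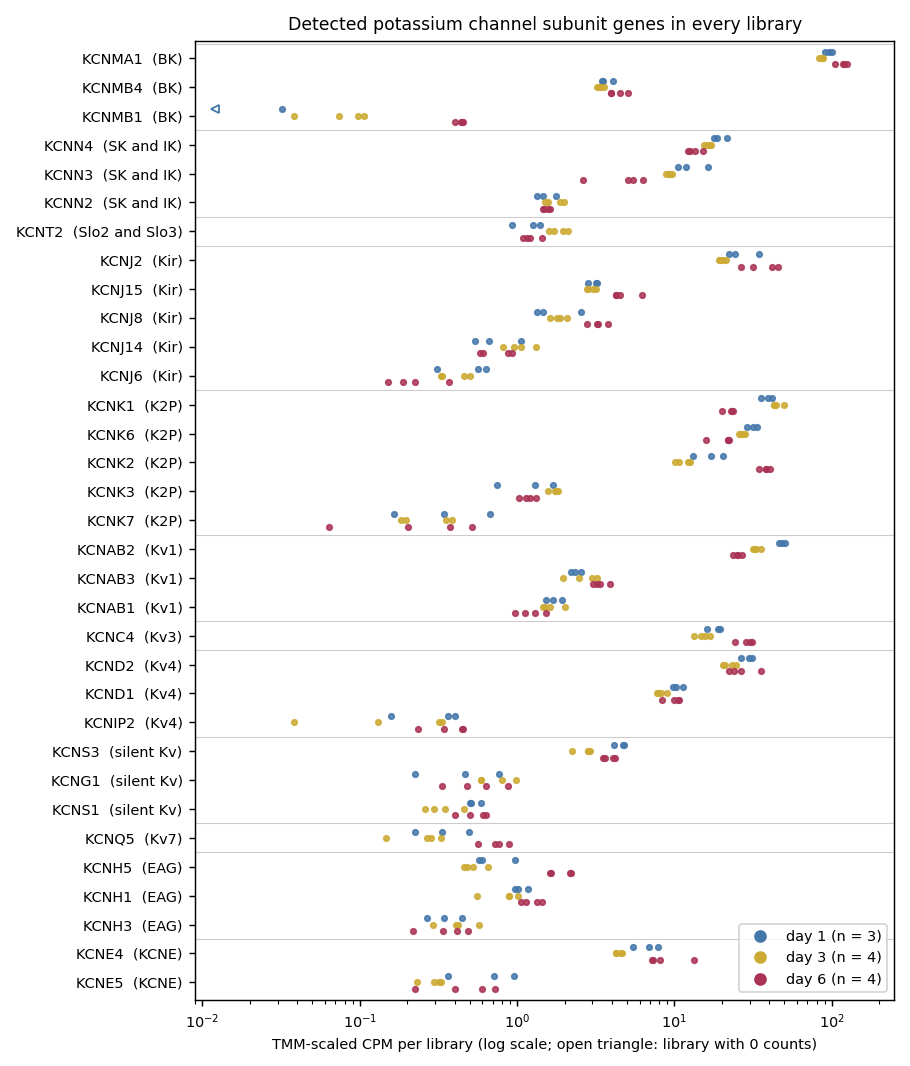
TMM-scaled CPM (log axis) of 33 detected genes in each library, grouped by family, with 1 point per library coloured by day; the open triangle marks KCNMB1 libraries with 0 counts. KCNMA1 lies between 83.5 and 125 CPM, and KCNMB1 goes from 0 to 0.455 CPM; CPM are not corrected for gene length.

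Levels of different genes were compared per kilobase of the principal coding transcript in GENCODE release 29. KCNK1 (16.2 CPM per kilobase on average over the 11 libraries), KCNMA1 (16.1) and KCNK2 (15.1) led, followed by KCNAB2 (8.04), KCNN4 (7.17), KCNC4 (7.03), KCNJ2 (5.16), KCND2 (4.84) and KCNK6 (4.50). The order among the leaders changed with the day: KCNK1 was at 20.7, KCNMA1 at 13.9 and KCNK2 at 7.64 CPM per kilobase on day 3, and at 10.4, 18.9 and 25.4 on day 6. Neighbours such as KCNN4 and KCNC4, or KCND2 and KCNK6, differed by less than their spread over days. The order also depends on the transcript chosen: with the longest annotated transcript the value of KCNMA1 is 8.29, that of KCNK2 6.66 and that of KCNC4 1.11 CPM per kilobase, while KCNK1 stays at 16.2.

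The comparison of day 3 with day 1 covers the early step of formation. Only KCNT2 was called higher, and KCNK2, KCNAB2, KCND1 and KCNS3 were called lower (edgeR's quasi-likelihood test, Benjamini-Hochberg adjusted p under 0.05 over all 18245 tested genes). These 5 of 34 genes (14.7%) compare with 12.8% of all tested genes (higher: 1, against 6.88%; lower: 4, against 5.9%). The median log2 change of the 34 was -0.29, against 0.00 over all tested genes. For 13 of the 34 every day 3 library lay below every day 1 library, against 12.9% of all tested genes, and for 3 every day 3 library lay above, against 15.2%; 1 of the 3 is KCNMB1, at 3 counts or fewer. Leaving out day 6 replicate 3 gave 10 lower calls, where all tested genes gave 1405 of 17986. Leaving out day 6 replicate 1 gave 7, where all tested genes gave 1146 of 18044. There were 13 when only the 2 days compared entered the fit, where all tested genes gave 1792 of 17344. The fit of all libraries gave 1077 of 18245. Higher calls were 2 without day 6 replicate 3 and in the fit of only those days. All tested genes gave 1593 and 1825 higher calls there, against 1255 in the fit of all libraries. No member was called higher (0) without day 1 replicate 1 or 2 or day 3 replicate 1, 2 or 3. All tested genes gave 697 to 944 higher calls in these fits. With library totals as the only scaling 0 members were higher and 9 lower, where 840 and 1630 of all tested genes were.

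In the late step, day 6 against day 3, 14 genes rose and 8 fell. The genes called higher were KCNMA1, KCNMB1, KCNMB4, KCNJ2, KCNJ8, KCNJ15, KCNK2, KCNC4, KCND1, KCNS3, KCNQ5, KCNH1, KCNH5 and KCNE4. Those called lower included KCNN3, KCNN4, KCNT2, KCNK1, KCNK3, KCNK6 and KCNAB2. The 22 calls are 64.7% of the 34 genes, against 49.9% of all tested genes (higher: 41.2% against 26.4%; lower: 23.5% against 23.4%). The median log2 change was 0.31, against 0.03 over all tested genes. For 13 genes every day 6 library lay above every day 3 library, against 22.9% of all tested genes, and for 7 every one lay below, against 21.1%. KCNMB1 passed the filter on low counts through its day 6 libraries alone, and KCNQ5 passed it only with its day 6 libraries. Neither gene therefore adds support to these counts, of calls or of days without overlap. Without KCNMB1 the calls are 13 and 8. The 13 genes whose day 6 libraries lay above those of day 3 include both KCNMB1 and KCNQ5. With library totals as the only scaling the median of all tested genes was 0.215 in place of 0.0306. The calls of members were then 17 higher and 4 lower, so that 81.0% of them were higher in place of 63.6%. The calls of all 18245 tested genes shifted as well, to 7885 higher and 2239 lower in place of 4825 and 4277. The calls of KCNN4, KCNT2 and KCNK3 were among those that ended with this scaling.

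Over the whole formation, day 6 against day 1, 9 genes were higher (KCNMA1, KCNMB1, KCNJ8, KCNJ15, KCNK2, KCNAB3, KCNC4, KCNQ5 and KCNH5) and 7 lower (among them KCNN3, KCNN4, KCNJ6, KCNK1, KCNK6 and KCNAB2). Together they are 47.1% of the 34, against 39.9% of all tested genes (higher: 26.5% against 21.3%; lower: 20.6% against 18.7%), and the median log2 change was 0.02 over the 34 and over all tested genes. Every day 6 library lay above every day 1 library for 9 genes, against 22.1% of all tested genes, and below for 7, against 19.7%. Without KCNMB1 the higher calls are 8. The 9 genes whose day 6 libraries lay above those of day 1 include KCNMB1 and KCNQ5, which passed the filter only with day 6 libraries. The 3 comparisons share libraries, so they are given side by side and not as independent evidence. Of the 34 genes 10 were called in none of them: KCNN2, KCNJ14, KCNK7, KCNAB1, KCND2, KCNIP2, KCNG1, KCNS1, KCNH3 and KCNE5. Under other processing KCND2, KCNE5, KCNJ14 and KCNS1 were each called in at least 1 comparison.

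**Figure D2:**
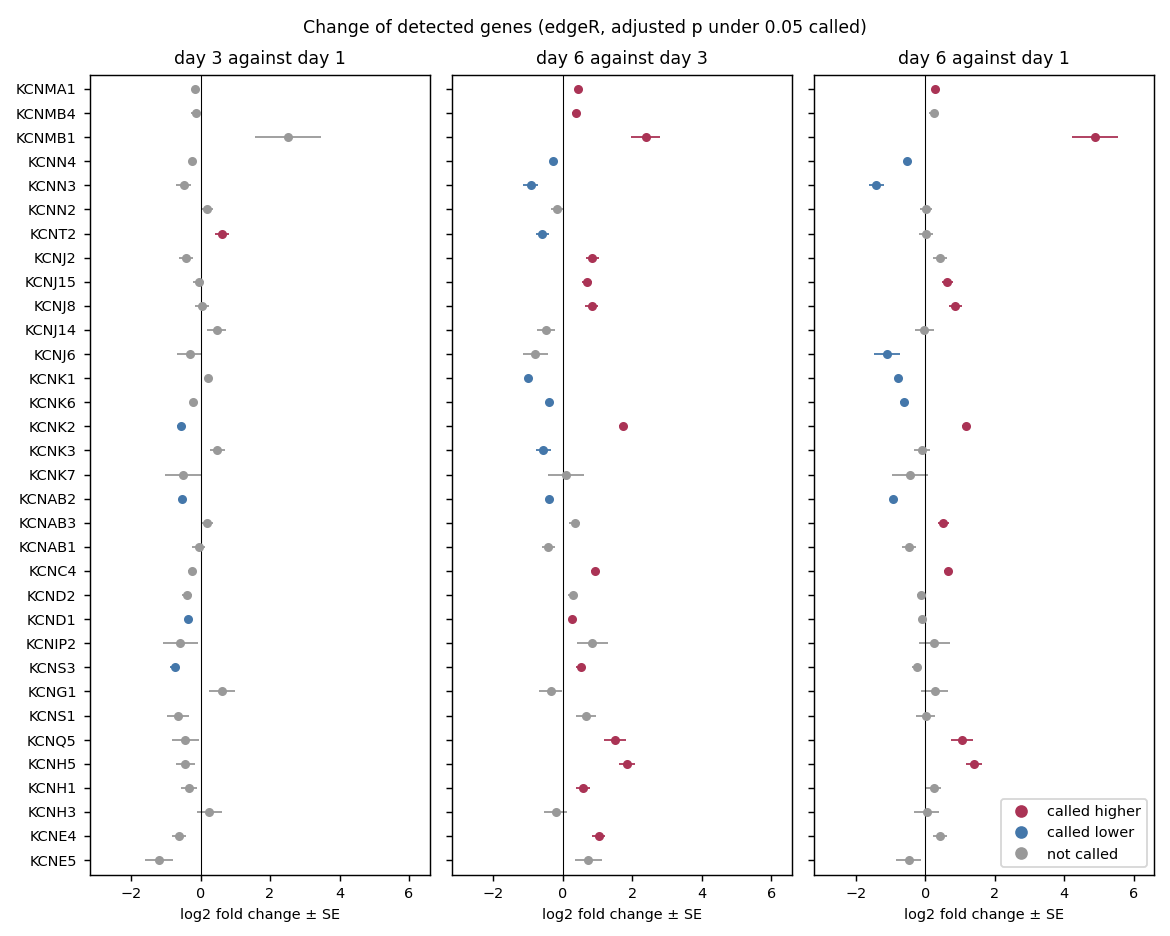
Log2 fold change with its SE for 33 detected genes in the early step, the late step and the whole formation, coloured by call (edgeR, adjusted p under 0.05). In the late step 14 of the genes drawn are called higher and 7 lower, against 1 and 4 in the early step. KCNMB1 and KCNQ5, which passed the filter only with day 6 libraries, are among the 14.

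The promoters of the 4 called genes with the smallest adjusted p are shown because KCNK2 and KCNC4 rose together in the late step while KCNK1 and KCNAB2 fell. Sequences are RefSeq windows on GRCh38.p14 from 250 bases before to 50 bases after a transcription start, written 5′ to 3′ on the gene's strand. KCNK2 has 2 such starts in that table and KCNAB2 has 4, of which the most upstream is printed; gene-level counts cannot say which start was used. Capitals mark matches to TATAAA and to the GC box GGGCGG on either strand. Each motif was searched on both strands on its own, overlaps included.
KCNK2, chr1:215005292-215005591, plus strand: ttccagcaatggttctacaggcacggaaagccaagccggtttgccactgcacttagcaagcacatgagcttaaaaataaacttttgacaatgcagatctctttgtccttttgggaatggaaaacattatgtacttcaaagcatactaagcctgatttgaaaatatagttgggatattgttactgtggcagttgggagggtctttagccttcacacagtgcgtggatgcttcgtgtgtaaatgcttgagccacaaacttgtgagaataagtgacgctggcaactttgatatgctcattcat
KCNC4, chr1:110210064-110210363, plus strand: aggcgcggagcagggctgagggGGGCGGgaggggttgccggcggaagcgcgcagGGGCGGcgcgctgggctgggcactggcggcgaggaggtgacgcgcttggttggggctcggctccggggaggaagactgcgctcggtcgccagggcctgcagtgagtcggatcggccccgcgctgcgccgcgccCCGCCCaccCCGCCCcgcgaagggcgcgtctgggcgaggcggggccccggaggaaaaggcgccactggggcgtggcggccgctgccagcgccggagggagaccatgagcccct
KCNK1, chr1:233613856-233614155, plus strand: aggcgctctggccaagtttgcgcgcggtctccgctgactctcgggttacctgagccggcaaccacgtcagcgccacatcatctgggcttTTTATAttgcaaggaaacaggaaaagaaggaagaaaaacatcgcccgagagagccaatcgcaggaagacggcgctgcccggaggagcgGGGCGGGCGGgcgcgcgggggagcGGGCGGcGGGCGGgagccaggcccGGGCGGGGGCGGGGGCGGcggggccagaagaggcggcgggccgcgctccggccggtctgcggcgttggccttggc
KCNAB2, chr1:5992426-5992725, plus strand: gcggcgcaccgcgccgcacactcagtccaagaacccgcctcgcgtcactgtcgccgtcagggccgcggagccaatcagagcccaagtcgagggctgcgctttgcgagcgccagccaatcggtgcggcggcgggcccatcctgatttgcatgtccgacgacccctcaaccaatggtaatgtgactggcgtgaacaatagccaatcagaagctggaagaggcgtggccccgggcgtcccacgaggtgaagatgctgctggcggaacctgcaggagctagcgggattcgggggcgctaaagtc
The KCNK1 window held 7 GC boxes, some overlapping each other, and 1 TATAAA on the minus strand, and the KCNC4 window held 4 GC boxes. The KCNK2 and KCNAB2 windows held neither motif. E-boxes (CANNTG), which 68.7% of all windows hold, were at 2 places in KCNK2 and 1 in KCNK1. None of the 4 held a CArG box (the serum response factor motif), an AP-1 site (TGANTCA) or a cyclic AMP response element (TGACGTCA). Base composition ranged from 42.0% G or C in KCNK2 to 78.7% in KCNC4. Over all 35116 windows of the table, 45.0% held a GC box, 11.5% TATAAA, 7.71% an AP-1 site, 1.85% the cyclic AMP element and 1.29% a CArG box. For the 27 detected genes with an entry, which have 40 windows, 25 windows (62.5%) held a GC box, 4 TATAAA, 4 an AP-1 site, 0 the cyclic AMP element and 1 a CArG box, and 65.0% held an E-box. The AP-1 matches were in KCNMA1, KCNN3, KCNJ15 and KCNAB1 and the CArG box in KCNK3. A match is a string of letters and not a measured binding site.

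Calcium-activated channels of large conductance open with depolarisation and intracellular calcium. KCNMA1 (chromosome 10, 76869601 to 77638369, GRCh38), which encodes their pore, was at 91.0, 100.2 and 95.6 CPM (day 1), 86.4, 86.3, 83.5 and 88.5 CPM (day 3) and 118, 120.4, 105 and 125 CPM (day 6). Every day 3 library lay below every day 1 library and every day 6 library above both. The late rise was called (log2 change 0.44, SE 0.0562, edgeR adjusted p = 2.72e-06), as was day 6 against day 1 (0.29, SE 0.0607, edgeR adjusted p = 0.000724), whereas the early difference was not (-0.15, SE 0.0607, edgeR adjusted p = 0.116). Among its beta subunits, KCNMB4, best known from the brain, was at 4.07, 3.46 and 3.53 CPM (day 1), 3.30, 3.42, 3.55 and 3.21 CPM (day 3) and 4.52, 3.94, 5.10 and 3.93 CPM (day 6). Its day 6 libraries were above all of day 3 but overlapped day 1. KCNMB4 rose in the late step (log2 change 0.38, SE 0.122, edgeR adjusted p = 0.0154), a call that ended without day 6 replicate 3 (edgeR adjusted p = 0.0569). It also ended with no filter on low counts (edgeR adjusted p = 0.0566) and with the letter of the column names, whose meaning the labels do not give, as a block (edgeR adjusted p = 0.0703).

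KCNMB1, the beta1 subunit that makes smooth muscle BK channels more sensitive to calcium, was rare. It had 0, 0 and 1 counts on day 1, 3, 1, 3 and 2 counts on day 3, and 14, 14, 15 and 12 counts on day 6. Day 6 stood above both earlier days, and days 1 and 3 shared a count of 1. Day 6 libraries held 0.446, 0.438, 0.455 and 0.403 CPM. From 9 to 55 summed counts, the late ratio was 5.44 (95% exact counting interval 2.67 to 12.5). Such an interval covers counting error only and leaves out the spread between libraries. KCNMB1 reached 10 counts in day 6 libraries alone and so entered the test through them. Neither its test result nor its ratios are therefore given as a finding. Against the single count on day 1 the ratio was 40.9, with an interval of 7.04 to 1644. KCNMB2 and KCNMB3 had at most 2 and 10 counts. KCNMB1 on day 6 was at 0.0862 CPM per kilobase, against 18.9 for KCNMA1 and 0.924 for KCNMB4.

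The small- and intermediate-conductance channels sense calcium through bound calmodulin and do not depend on voltage. KCNN3 (chromosome 1, 154697455 to 154870281), which encodes SK3, was at 11.9, 10.6 and 16.3 CPM (day 1), 9.18, 9.64, 8.87 and 9.22 CPM (day 3) and 2.64, 5.04, 5.43 and 6.28 CPM (day 6). The 3 days did not overlap and followed each other downwards. KCNN3 fell in the late step (log2 change -0.93, SE 0.210, edgeR adjusted p = 0.00283) and from day 1 to day 6 (-1.41, SE 0.216, edgeR adjusted p = 0.000251), while the early difference was not called (-0.49, SE 0.208, edgeR adjusted p = 0.157). KCNN4, which encodes the intermediate-conductance channel IK1 (KCa3.1), was at 17.8, 18.5 and 21.7 CPM (day 1), 16.8, 17.0, 16.2 and 15.4 CPM (day 3) and 15.2, 13.6, 12.2 and 12.6 CPM (day 6). These days did not overlap either, and KCNN4 fell in the late step (log2 change -0.29, SE 0.0838, edgeR adjusted p = 0.00801) and over the whole formation (-0.53, SE 0.0884, edgeR adjusted p = 9.48e-05). The late call of KCNN4 ended with library totals as scaling (edgeR adjusted p = 0.307). KCNN2 (SK2) was at 1.46, 1.76 and 1.34 CPM (day 1), 1.57, 1.88, 1.51 and 1.99 CPM (day 3) and 1.62, 1.47, 1.49 and 1.58 CPM (day 6), with all days overlapping. Its log2 change from day 1 to day 6 was 0.02, with a 95% interval of -0.33 to 0.37. Summed over the family, SK and IK genes were at 33.9 ± 4.73 CPM on day 1, 27.4 ± 0.922 CPM on day 3 and 19.9 ± 0.646 CPM on day 6 (SD, n = 3, 4 and 4), whereas BK genes were at 99.5 ± 4.32, 89.9 ± 1.88 and 122 ± 8.32 CPM.

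KCNT2, a sodium-activated channel (Slo2.1) related to BK, was highest on day 3. It was at 1.27, 0.931 and 1.40 CPM (day 1), 2.09, 1.96, 1.72 and 1.59 CPM (day 3) and 1.43, 1.16, 1.09 and 1.21 CPM (day 6). Day 3 libraries lay above all others, and days 1 and 6 overlapped. The early rise was called narrowly (log2 change 0.61, SE 0.195, edgeR adjusted p = 0.0449). That call ended without day 1 replicate 1 or 2 or day 3 replicate 1, 2 or 3 (edgeR adjusted p = 0.0691 to 0.209) and with DESeq2 (adjusted p = 0.0568). It also ended with library totals (edgeR adjusted p = 0.0619), with the letter block (0.112) and with no filter on low counts (0.0944). The late fall was -0.59, SE 0.179, edgeR adjusted p = 0.0101, and with library totals it was not called (edgeR adjusted p = 0.0587).

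Inward rectifiers pass potassium best near the resting potential. KCNJ2, which encodes the strong rectifier Kir2.1, was at 24.3, 34.3 and 22.1 CPM (day 1), 19.1, 19.5, 20.4 and 21.2 CPM (day 3) and 41.5, 31.7, 26.6 and 45.3 CPM (day 6). Every day 3 library was below every library of the other days. KCNJ2 rose in the late step (log2 change 0.85, SE 0.184, edgeR adjusted p = 0.00321), and neither the early difference (-0.42, SE 0.199, edgeR adjusted p = 0.212) nor day 6 against day 1 (0.43, SE 0.195, edgeR adjusted p = 0.107) was called. The antisense gene KCNJ2-AS1, which overlaps it, had 12.1% of its counts on average, and without a stated strand setting their reads cannot be told apart.

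KCNJ8, which encodes Kir6.1, the pore of vascular-type ATP-sensitive channels, was at 2.55, 1.33 and 1.46 CPM (day 1), 1.86, 2.07, 1.79 and 1.62 CPM (day 3) and 3.28, 3.79, 3.22 and 2.79 CPM (day 6). Day 6 lay above both earlier days, which overlapped each other. KCNJ8 rose in the late step (log2 change 0.83, SE 0.181, edgeR adjusted p = 0.000821) and from day 1 to day 6 (0.87, SE 0.195, edgeR adjusted p = 0.00146). ABCC9, the sulphonylurea receptor SUR2 that pairs with Kir6 pores, was taken here after its values were seen: it was at 1.96, 2.03 and 1.53 CPM (day 1), 2.25, 1.61, 2.36 and 2.58 CPM (day 3) and 3.63, 3.72, 2.58 and 3.69 CPM (day 6). Day 6 replicate 3, at 2.58 CPM, was level with the highest day 3 library. Its log2 changes were 0.62 in the late step (edgeR adjusted p = 0.00402) and 0.89 from day 1 to day 6 (edgeR adjusted p = 0.000692). The other receptor gene, ABCC8, had at most 9 counts.

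KCNJ15 (Kir4.2) was at 2.83, 3.22 and 3.18 CPM (day 1), 2.78, 3.15, 3.03 and 2.84 CPM (day 3) and 4.23, 4.22, 6.19 and 4.50 CPM (day 6), with day 6 above all earlier libraries and replicate 3 the highest. KCNJ15 was called higher in the late step (log2 change 0.70, SE 0.138, edgeR adjusted p = 0.000323) and over the whole formation (0.64, SE 0.148, edgeR adjusted p = 0.00186), and stayed so without day 6 replicate 3 (log2 changes 0.55 and 0.49). The noncoding gene DSCR8, on the same strand and overlapping it, had 314% of its counts, so its level is uncertain. KCNJ6 (Kir3.2) was below 1 CPM and fell from day 1 to day 6 (log2 change -1.11, SE 0.376, edgeR adjusted p = 0.0246). That call ended without day 1 replicate 2 or 3 or day 6 replicate 2 or 3 (edgeR adjusted p = 0.0573 to 0.132) and with the letter block (edgeR adjusted p = 0.146), and DSCR4 overlaps KCNJ6 on the same strand with 477% of its counts. KCNJ14 (Kir2.4), not called, overlaps GRWD1, a gene at 40.8 CPM on day 1, on the same strand. The Kir family summed to 33.4 ± 6.49 CPM on day 1, 26.6 ± 0.843 CPM on day 3 and 45.7 ± 7.92 CPM on day 6 (SD, n = 3, 4 and 4).

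K2P channels carry a leak current that is open at rest, and their genes moved in opposite directions. KCNK2 (chromosome 1, 215005775 to 215237090), which encodes TREK1, a channel opened by stretch and by lipids, was at 17.1, 20.3 and 13.1 CPM (day 1), 10.7, 10.1, 12.2 and 12.6 CPM (day 3) and 38.4, 38.3, 40.4 and 34.4 CPM (day 6). The 3 days did not overlap, with day 3 lowest and day 6 highest. KCNK2 fell in the early step (log2 change -0.56, SE 0.122, edgeR adjusted p = 0.00675) and rose 3.32-fold in the late step (log2 change 1.73, SE 0.111, edgeR adjusted p = 5.26e-09); day 6 was above day 1 by 1.17 (SE 0.116, edgeR adjusted p = 1.26e-06).

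KCNK1 (chromosome 1, 233614106 to 233672514), which encodes TWIK1, was at 39.5, 35.4 and 41.4 CPM (day 1), 42.8, 49.5, 44.2 and 42.8 CPM (day 3) and 22.8, 23.3, 20.1 and 23.7 CPM (day 6). Its day 6 libraries were all below the others, and its day 3 libraries all above those of day 1. KCNK1 fell in the late step to 0.501 of its day 3 level (SE 0.0701 on the log2 scale, edgeR adjusted p = 2.37e-09) and was lower on day 6 than on day 1 (-0.79, SE 0.0748, edgeR adjusted p = 2.19e-07); the early difference was not called (0.21, SE 0.0737, edgeR adjusted p = 0.0685). KCNK6, the related TWIK2, was at 33.6, 28.8 and 31.6 CPM (day 1), 27.9, 26.6, 25.8 and 27.4 CPM (day 3) and 21.8, 21.8, 15.9 and 22.2 CPM (day 6). The days did not overlap and went down in order. KCNK6 fell in the late step (log2 change -0.40, SE 0.0882, edgeR adjusted p = 0.00100) and from day 1 to day 6 (-0.62, SE 0.0933, edgeR adjusted p = 3.94e-05). Day 6 replicate 3 was its lowest library, and without it the late change was -0.29 (edgeR adjusted p = 0.00101).

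KCNK3, which encodes the acid-sensitive channel TASK1, was low, at 0.745, 1.30 and 1.69 CPM (day 1), 1.76, 1.57, 1.83 and 1.73 CPM (day 3) and 1.21, 1.31, 1.03 and 1.14 CPM (day 6). Day 3 was above day 6 without overlap, and day 1 overlapped both. The late fall (log2 change -0.56, SE 0.206, edgeR adjusted p = 0.0313) ended without day 3 replicate 1, 3 or 4 or day 6 replicate 3 or 4 (edgeR adjusted p = 0.0574 to 0.0704) with library totals (edgeR adjusted p = 0.133) and with the letter block (edgeR adjusted p = 0.0945). The summed level of the K2P genes was 89.0 ± 2.63 CPM on day 1, 85.5 ± 1.94 CPM on day 3 and 82.4 ± 3.23 CPM on day 6 (SD, n = 3, 4 and 4).

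**Figure D3:**
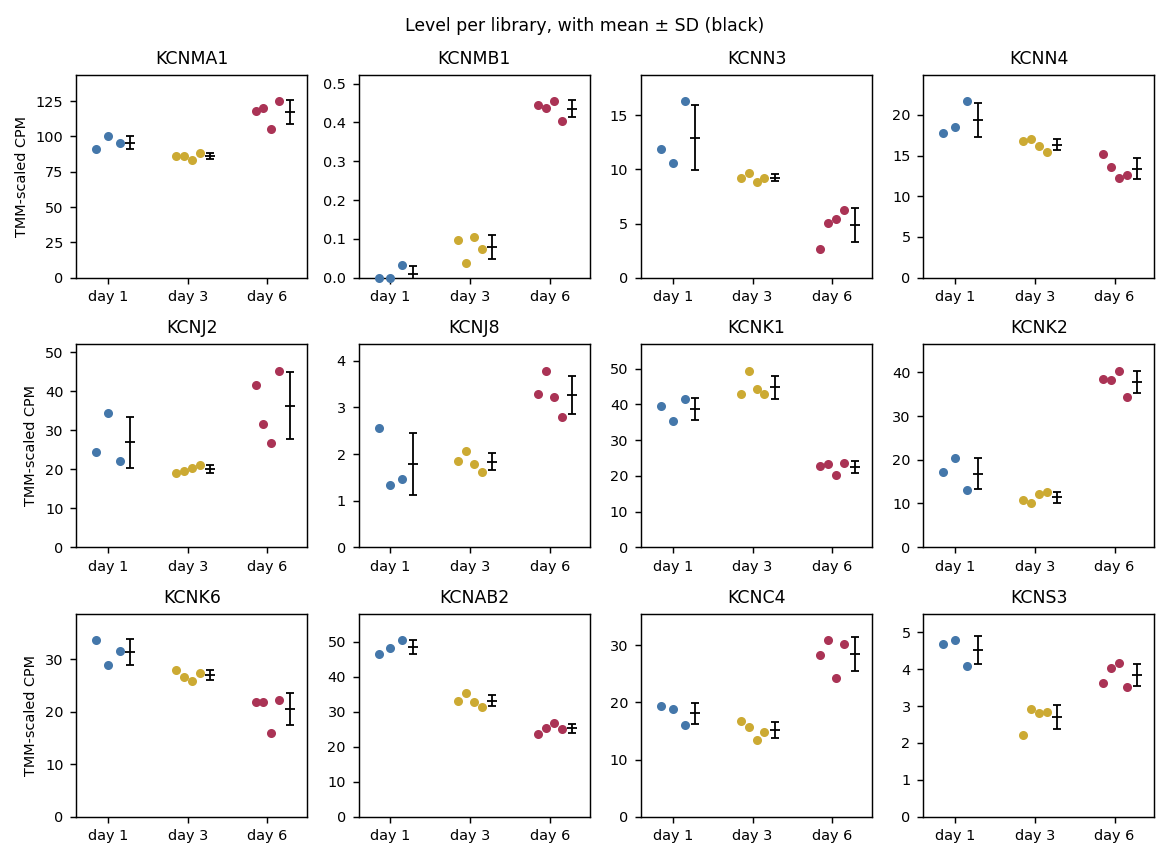
TMM-scaled CPM of 12 genes in each library by day, with 1 point per library and the mean ± SD beside it in black. By mean, KCNMA1, KCNMB1, KCNJ2, KCNJ8, KCNK2 and KCNC4 are highest on day 6, KCNN3, KCNN4, KCNK1, KCNK6 and KCNAB2 lowest on day 6, and KCNS3 lowest on day 3. The day 6 libraries of KCNJ2 overlap those of day 1, and KCNMB1 passed the filter through day 6 libraries alone.

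Among voltage-gated families, no pore-forming Kv1 gene was detected although their beta subunits were. KCNAB2 (chromosome 1, 5990927 to 6101193), which encodes the cytoplasmic Kv beta2 subunit, was at 46.4, 48.1 and 50.4 CPM (day 1), 33.1, 35.3, 32.6 and 31.4 CPM (day 3) and 23.7, 25.3, 26.8 and 25.0 CPM (day 6). The 3 days did not overlap. KCNAB2 fell in the early step (log2 change -0.55, SE 0.0615, edgeR adjusted p = 1.7e-05), in the late step (-0.39, SE 0.0589, edgeR adjusted p = 1.9e-05) and over the whole formation, 1.92-fold (-0.94, SE 0.0618, edgeR adjusted p = 3.81e-09). NPHP4 overlaps it on the opposite strand with 64.6% of its counts, and its means were 21.2, 24.8 and 20.7 CPM on days 1, 3 and 6. KCNAB3 (Kv beta3) was at 2.20, 2.56 and 2.32 CPM (day 1), 3.20, 1.96, 2.99 and 2.47 CPM (day 3) and 3.21, 3.38, 3.88 and 3.02 CPM (day 6). Its day 6 libraries lay above day 1 and overlapped day 3. Day 6 was above day 1 (log2 change 0.52, SE 0.164, edgeR adjusted p = 0.0172), a call that ended without day 1 replicate 1 or 3 (edgeR adjusted p = 0.0585 to 0.0752) or with the letter block (edgeR adjusted p = 0.104). KCNAB1 was at 1.72 ± 0.209, 1.65 ± 0.245 and 1.23 ± 0.238 CPM (SD, n = 3, 4 and 4) and was not called.

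KCNC4 (chromosome 1, 110210314 to 110283100), which encodes the fast-inactivating channel Kv3.4, was the only Kv3 gene detected, at 19.4, 18.9 and 16.0 CPM (day 1), 16.7, 15.7, 13.4 and 14.8 CPM (day 3) and 28.3, 30.9, 24.3 and 30.2 CPM (day 6). Day 6 lay above both earlier days, which overlapped. KCNC4 rose in the late step (log2 change 0.91, SE 0.0882, edgeR adjusted p = 1.12e-07) and from day 1 to day 6 (0.65, SE 0.0943, edgeR adjusted p = 2.3e-05). The Kv4 genes carry A-type current. KCND1 (Kv4.1) was at 11.3, 10.3 and 9.74 CPM (day 1), 8.17, 8.99, 7.88 and 7.71 CPM (day 3) and 10.7, 8.29, 9.86 and 10.6 CPM (day 6). Its day 3 libraries were below day 1, and days 3 and 6 overlapped. Both the early fall (log2 change -0.35, SE 0.103, edgeR adjusted p = 0.0300) and the late rise (0.27, SE 0.0963, edgeR adjusted p = 0.0256) ended with single libraries left out. For the early fall these were day 1 replicate 1 or 2 and day 3 replicate 1, 3 or 4 (edgeR adjusted p = 0.0676 to 0.152), and for the late rise day 3 replicate 1, 3 or 4 and day 6 replicate 1 or 4 (edgeR adjusted p = 0.0529 to 0.0721). The letter block ended both (edgeR adjusted p = 0.0726 early and 0.143 late), and the fit with no filter on low counts ended the late rise (edgeR adjusted p = 0.0586). KCND2 (Kv4.2) was at 29.1 ± 2.41, 22.2 ± 2.04 and 27.0 ± 5.90 CPM (SD, n = 3, 4 and 4) and was not called in any comparison, although its day 3 libraries lay below those of day 1 (log2 change -0.39, SE 0.136, edgeR adjusted p = 0.0810). Its early change was called with DESeq2, no filter on low counts, the letter block or only the 2 days compared. Its late change was called with library totals or no filter. Of the KChIP subunits that bind Kv4 channels only KCNIP2 was detected, with 15 counts at most.

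Silent subunits make no channel alone and modify Kv2 channels. KCNS3 (Kv9.3) was at 4.69, 4.79 and 4.10 CPM (day 1), 2.22, 2.92, 2.82 and 2.84 CPM (day 3) and 3.63, 4.04, 4.16 and 3.53 CPM (day 6). Day 3 lay below both other days, which overlapped. KCNS3 fell in the early step (log2 change -0.75, SE 0.135, edgeR adjusted p = 0.00127) and rose in the late step (0.51, SE 0.128, edgeR adjusted p = 0.00261), and day 6 against day 1 was not called (-0.24, SE 0.129, edgeR adjusted p = 0.155).

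Kv7 channels open near the resting potential and relax smooth muscle when activated. KCNQ5 (Kv7.5) was at 0.497, 0.332 and 0.223 CPM (day 1), 0.327, 0.269, 0.282 and 0.147 CPM (day 3) and 0.891, 0.563, 0.728 and 0.772 CPM (day 6), under 1 CPM in every library. Its day 6 libraries lay above all earlier ones. Its counts were 16, 10 and 7 on day 1 and 10, 7, 8 and 4 on day 3. With 16, 10 and 10 counts it met the detection rule without day 6. The edgeR filter scales its minimum of 10 counts to the library total, and 10 counts in day 3 replicate 1, a larger library, fell short. KCNQ5 met that filter on low counts only with its day 6 libraries, so its test result is not given as a finding. The log2 change was 1.50 in the late step (SE 0.318) and 1.06 from day 1 to day 6 (SE 0.320). The call from day 1 to day 6 ended without day 1 replicate 3 (edgeR adjusted p = 0.0875). It also ended with the letter block (log2 change 0.76, edgeR adjusted p = 0.140).

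Of the EAG family, KCNH5 (Kv10.2) was at 0.963, 0.598 and 0.573 CPM (day 1), 0.523, 0.653, 0.458 and 0.479 CPM (day 3) and 2.16, 2.19, 1.61 and 1.65 CPM (day 6), with day 6 above all earlier libraries. KCNH5 rose 3.59-fold in the late step (log2 change 1.85, SE 0.225, edgeR adjusted p = 1.72e-06) and was higher on day 6 than on day 1 (1.41, SE 0.230, edgeR adjusted p = 7.65e-05). KCNH1, which encodes EAG1 and is known for its expression in tumour cells, was at 1.18, 0.964 and 1.02 CPM (day 1), 0.555, 0.883, 1.02 and 0.885 CPM (day 3) and 1.34, 1.06, 1.43 and 1.14 CPM (day 6). Day 6 lay above day 3 and overlapped day 1. The late rise of KCNH1 (log2 change 0.58, SE 0.212, edgeR adjusted p = 0.0295) ended without day 3 replicate 1 or day 6 replicate 1 or 3 (edgeR adjusted p = 0.0614 to 0.117). It also ended with DESeq2 (adjusted p = 0.0604), with the letter block (edgeR adjusted p = 0.0678) and with no filter on low counts (edgeR adjusted p = 0.0995). KCNH3 was not called, and MCRS1, which overlaps it on the opposite strand, was at 53.0 CPM on day 1.

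KCNE4, a single-span subunit that inhibits or modulates Kv7 and other Kv channels, was at 6.92, 5.45 and 7.89 CPM (day 1), 4.28, 4.61, 4.22 and 4.54 CPM (day 3) and 8.15, 7.17, 13.4 and 7.29 CPM (day 6). Day 3 lay below both other days, and day 6 replicate 3 stood above the rest. KCNE4 rose in the late step (log2 change 1.03, SE 0.192, edgeR adjusted p = 0.000480), also without day 6 replicate 3 (log2 change 0.78, edgeR adjusted p = 1.99e-05). Its early difference was not called (log2 change -0.62, SE 0.210, edgeR adjusted p = 0.0709). It was called without day 6 replicate 3 (edgeR adjusted p = 0.00141), with DESeq2 (adjusted p = 0.0178) and with the replicate block (edgeR adjusted p = 0.0375). Fits with no filter or only the 2 days compared called it too. Day 6 against day 1 was not called (0.42, SE 0.197, edgeR adjusted p = 0.110), except with library totals, no filter or either block. KCNE5 was at 0.678 ± 0.296, 0.292 ± 0.0433 and 0.487 ± 0.221 CPM (SD, n = 3, 4 and 4) and was not called; it shares its span with ACSL4, which has far more counts (618 CPM on day 1).

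Summed over all 96 genes, potassium channel RNA was at 385 ± 4.69 CPM on day 1, 327 ± 4.47 CPM on day 3 and 388 ± 16.8 CPM on day 6 (SD, n = 3, 4 and 4), a description with no test. The single libraries held 383, 391 and 382 CPM (day 1), 324, 334, 325 and 328 CPM (day 3) and 403, 385, 365 and 398 CPM (day 6). Day 3 was thus below both other days, which overlapped. KCNMA1 made up 24.8 ± 0.944%, 26.3 ± 0.608% and 30.2 ± 1.39% of these counts on the 3 days. The 10 most abundant genes held 84.2% to 88.4% of them in every library.

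**Figure D4:**
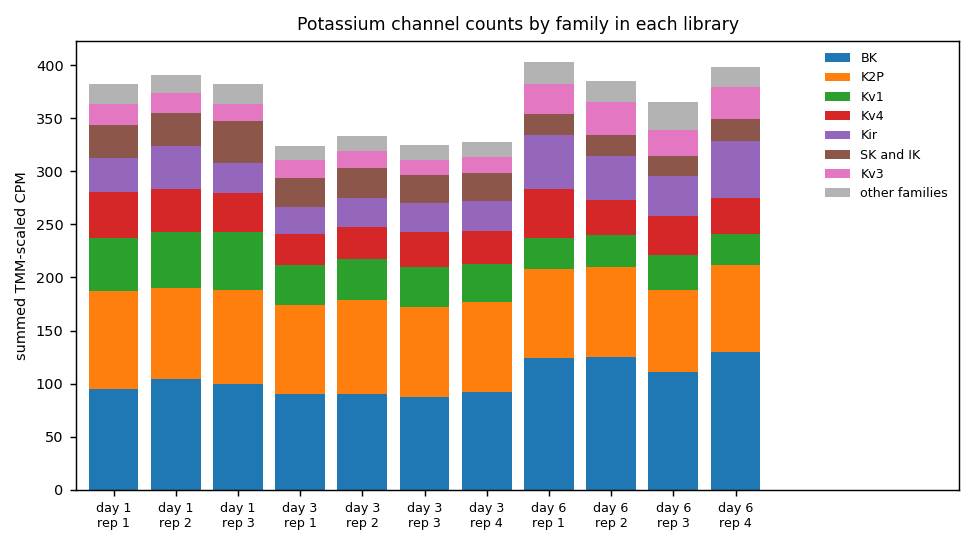
Summed TMM-scaled CPM of the 96 genes in each library (bars start at 0), stacked by channel family. The 4 day 3 libraries sum to 324 to 334 CPM, below the 382 to 391 CPM of day 1 and the 365 to 403 CPM of day 6, and the BK and Kir shares are largest on day 6.

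Genes outside the KCN symbols whose products bind or regulate these channels were listed beside them. Of 21 such partners 15 were tested; 0 rose and 1 fell in the early step, 7 rose and 3 fell in the late step, and 6 rose and 2 fell over the whole formation, with median log2 changes of -0.04, 0.11 and 0.06. Of all tested genes 6.88% were called higher and 5.9% lower in the early step, 26.4% and 23.4% in the late step, and 21.3% and 18.7% over the whole formation. CAV1, caveolin 1, which gathers BK channels in membrane pits, went from 212 ± 10.1 to 390.4 ± 8.18 CPM in the late step (log2 change 0.88, edgeR adjusted p = 7.56e-10, n = 4 and 4). CALM3, one of 3 calmodulin genes, rose by 0.56 (edgeR adjusted p = 2.08e-07), and all 3 were called higher in that step. DLG4, a scaffold protein, had -0.76 (edgeR adjusted p = 3.51e-08), and it overlaps ACADVL.

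LRRC55, chosen after its values were seen, encodes a gamma subunit of BK channels known mainly from the brain. It was at 209, 222 and 279 CPM (day 1), 197, 209, 178 and 204 CPM (day 3) and 248, 267, 334 and 345 CPM (day 6). Its day 6 libraries lay above those of day 3. It rose in the late step (log2 change 0.60, edgeR adjusted p = 0.00104) and was not called from day 1 to day 6 (0.33, edgeR adjusted p = 0.0534). The other BK gamma genes, LRRC26, LRRC38 and LRRC52, had at most 1, 5 and 1 counts.

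The sodium-potassium pump builds the gradient that these channels use. Of 10 pump and cotransporter genes 7 were tested; 1 rose and 1 fell in the early step, 1 rose and 4 fell in the late step, and 1 rose and 3 fell from day 1 to day 6. Of all tested genes 12.8%, 49.9% and 39.9% were called in these comparisons, in either direction. ATP1B1, a beta subunit, went from 34.8 ± 1.44 to 25.4 ± 1.49 and 44.9 ± 5.87 CPM (SD, n = 3, 4 and 4), falling early and rising late (log2 changes -0.46 and 0.83, edgeR adjusted p = 0.00167 and 1.11e-07). ATP1B3, another beta subunit, fell late from 269 ± 9.75 to 163 ± 28.4 CPM (log2 change -0.72, edgeR adjusted p = 0.000113).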

How the data were processed

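Polyadenylated RNA of 11 libraries was sequenced by the submitters. The authors deposited raw read counts per gene, 1 column per library, with no normalization; 0 columns were left unused. GRCh38 is the build in the submitters' processing notes, which also list, without saying what each did, Salmon 1.10.0, featureCounts 2.0.8 from Subread, STAR 2.7.11b and DRAGEN. The sources used here do not say which annotation was used or how strand and reads with several matches were handled (not given in the sources used here), so counts of overlapping genes and near-identical copies are uncertain. Of 79031 rows, 92 spike-in and 7 transgene rows (at most 2 counts in a library) were left out.

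Genes were filtered with filterByExpr (minimum count 10, minimum total 15, by day), which kept 18245 genes and all 34 detected members, and were tested with edgeR 4.0.16 (R 4.3.3; TMM factors, robust quasi-likelihood fit, day as a factor, all libraries in 1 fit, Benjamini-Hochberg adjustment over all tested genes). SEs come from the F statistic and 95% intervals are 1.96 SE. Alternatives were RLE factors, library totals, DESeq2 1.42.0, limma 3.58.1 (voom), other filters, blocks, only the 2 days compared, and each library left out. A simulation with independent libraries, drawn from the spread of this same fit, was also run, and its outcome is not given here. It cannot show how the test behaves if replicates were not separate cultures. Every replicate pair differed beyond sampling noise (chi-square per gene 4.07 to 30.5), and all 11 libraries were kept as separate samples.

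The members and gene lists were chosen with earlier results of these data known. Values in every library are given for members called in at least 1 comparison with a mean of at least 1 CPM and for detected members of a fixed set known from smooth muscle; other called members are given by fold change, members not called by their means or names, and partners and pumps by at most 3 genes a list with the smallest adjusted p, except where said. Some genes that these rules name are counted but not reported here.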

Additional observations from a re-analysis of the deposited data

Results flagged for a closer look

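In groups of 4 libraries, the gap between the highest or lowest library and its nearest neighbour was compared with the group's whole range (Dixon's criterion, 0.829). Chance flags about 1 group in 20, and 4 of 52 groups were flagged. Day 6 replicate 3 was the library in 3 of them. In it KCNK6 was at 15.9 CPM, against 21.8 to 22.2 CPM in the other day 6 libraries, KCNE4 at 13.4 CPM, against 7.17 to 8.15 CPM, and KCNJ15 at 6.19 CPM, against 4.22 to 4.50 CPM. KCNS3 was at 2.22 CPM in day 3 replicate 1, against 2.82 to 2.92 CPM in the other day 3 libraries.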

How the results depend on the processing

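Of 43 calls of members in the 3 comparisons, 30 were kept under all 9 processing alternatives that tested the gene and with each of the 11 libraries left out, and none changed sign in a called value. The 43 include calls of KCNMB1 and KCNQ5, which passed the filter only with day 6 libraries. The 34 detected genes were 41, 27, 24 and 34 under a minimum of 5 or 20 counts in 3 libraries, 10 counts in all 11 libraries and the edgeR filter. In the early step the higher call of 1 became 0 with library totals, no filter, the letter block or DESeq2. It became 2 with limma-voom or only the 2 days compared, and ranged from 0 to 2 with libraries left out. Over all tested genes the 1255 higher calls were 840, 1359, 930 and 1407 in the settings that gave 0. They were 1216 and 1825 in those that gave 2, and 697 to 1593 with libraries left out. The 4 lower calls of the early step became 9 with library totals, 8 with no filter and 13 with only the 2 days compared. They ranged from 3 to 10 with libraries left out. Over all tested genes the 1077 lower calls were 1630, 1111 and 1792 in these settings, and 603 to 1405 with libraries left out. The 8 lower calls of the late step became 4 with library totals, where those of all tested genes went from 4277 to 2239. With libraries left out, the late step gave 12 to 15 higher and 6 to 8 lower calls, and day 6 against day 1 gave 7 to 10 and 5 to 9. Over all tested genes these ranges were 4318 to 4795 and 3853 to 4329 late, and 2840 to 3852 and 2549 to 3410 from day 1 to day 6. The cause of these shifts was not tested. Requiring 1 CPM in 3 libraries removed KCNMB1, KCNQ5 and KCNJ6, among others, from the tests.

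The labels do not say whether the replicate numbers pair the libraries. Correlations of same-numbered libraries' deviations from their day means were small, at -0.0226 to 0.103. For libraries of different number and day they were -0.0833 to 0.0642. With the replicate block the early step gave 1 higher and 6 lower calls, the late step 14 and 8, and day 6 against day 1 10 and 7. Over all tested genes this block gave 1161 and 1030 early, 4826 and 4336 late, and 3765 and 3354 from day 1 to day 6. The letter in the column names, used as a block, ended 11 calls, among them those of KCND1 and KCNT2 early, KCND1, KCNH1, KCNK3 and KCNMB4 late, and KCNAB3, KCNJ6 and KCNQ5 from day 1 to day 6. It added KCND2 and KCNN3 early, KCNE5 and KCNJ14 late, and KCNE4 from day 1 to day 6. Over all tested genes the letter block gave 930 higher and 770 lower calls early, 4082 and 3635 late, and 2715 and 2468 from day 1 to day 6. The 62 undetected genes were not tested, except with no filter, where KCNK13 and KCNJ3 were called. Counts this low limit what depth can show.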
